A study of Mus musculus with 6 samples.

Results

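Immediate-early genes and cytosolic heat shock genes are the first transcripts that most mammalian cells raise after a stimulus or a proteotoxic stress. The set described here holds 32 genes, listed by name. They are 13 immediate-early transcription factors, 10 immediate-early feedback and growth arrest genes, and 9 cytosolic chaperones and co-chaperones. A gene was taken as found where its symbol equals the gene name of a row in the deposited count table of 42380 rows. That rule found 29 of the 32, and 27 of these passed the filter on low counts and were tested. Hspa1a, Hspa8 and Hsp90aa1 have no row under their symbols. Fosb and Klf4 have rows whose counts were too low to test.

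Messenger RNA came from mouse liver, either without DEHP (control, 3 libraries) or with DEHP (3 libraries, whose columns carry the word High). DEHP is di(2-ethylhexyl) phthalate, a plasticizer. The labels give no dose, route, duration, strain, age or sex, and the design text of the series describes another assay in a human cell line, so groups rest on the sample titles. The labels do not state whether each library is from its own animal, so p-values measure only the spread between these samples, which may be technical.

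Library totals ran from 10410098 to 14229803 counts. Of 12 hepatocyte markers, which check the labelled tissue, 10 had a row, none of them at 0 in all libraries, and they summed to 124200 to 169400 CPM in controls and 111000 to 144500 CPM with DEHP. CPM is the read count scaled for library size, with no allowance for gene length. Control replicates 1 and 2 stood apart from the other 4 libraries in interferon-stimulated genes. That list (23 of 25 with a row, none at 0) summed to 4454 and 3594 CPM there, against 437 CPM in control replicate 3 and 406 to 467 CPM with DEHP. Macrophage and Kupffer cell markers (11 of 12 with a row, none at 0) followed, at 871 and 800 CPM against 257 CPM in control replicate 3 and 273 to 397 CPM with DEHP. In bulk tissue, fewer cells of a type and less RNA per cell cannot be told apart.

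Immediate-early genes carry promoters that are held ready, with serum response elements, cyclic AMP response elements and AP-1 sites. Kinase signals switch them on without new protein synthesis, and many encode AP-1 subunits (the Fos and Jun families) or zinc finger factors. A second group, among them the dual-specificity phosphatases and the mRNA decay factor tristetraprolin, turns the signal off again. Heat shock genes are driven by the transcription factor HSF1, which binds arrays of inverted GAA units when unfolded protein occupies the chaperones that otherwise hold it inactive. In liver both programmes also answer to feeding, body temperature, tissue handling and regeneration.

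No tested gene of the set passed an adjusted p of 0.05 between DEHP and control livers (0 of 27, edgeR's quasi-likelihood test with Benjamini-Hochberg adjustment over 12468 genes). Over all genes tested, 0.0722% passed (0.0561% with higher and 0.016% with lower levels under DEHP). At an unadjusted p of 0.05, 1 of 27 was higher, against 6.11% of all genes, and 4 were lower, against 6.97%. The lower ones were Fos, Jund, Atf3 and Zfp36, and the higher one was Nr4a1. DESeq2 called 1 member higher and 1 lower, where it called 0.938% and 1.24% of all genes. Limma-voom called 0 members, where it called 0.0481% of all genes higher and 0.00802% lower. With no low-count filter edgeR called 1 member higher and 2 lower, against 1.07% and 1.34% of all genes. Without control replicate 3 it called 1 member higher and 0 lower, against 0.946% and 2.16%. It called 0 members without control replicate 1 (0.0391% of all genes), control replicate 2 (0.0467%), DEHP replicate 1 (0.147%), DEHP replicate 2 (0.0463%) or DEHP replicate 3 (0.0387%). Of the 27 fold changes, 22 lay below 0, against 52.9% of all genes, and their median was -0.45 on the log2 scale, against -0.03 for all genes tested. Medians by role were -0.51 for 11 transcription factors, -0.40 for 10 feedback genes and -0.47 for 6 heat shock genes. They were -0.80 without DEHP replicate 1 and -0.33 without DEHP replicate 2 for the transcription factors. The feedback median was -0.21 when control replicate 1 was omitted. For the heat shock genes it was -0.13 with control replicate 2 omitted, -0.28 with DEHP replicate 2 omitted, -0.75 with control replicate 1 omitted and -0.80 with DEHP replicate 1 omitted.

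The members varied widely between libraries of the same group. Their median within-group SD was 0.647 on the log2 scale over all 27 tested, against 0.320 over all genes tested. The median was 0.264 over 6004 genes from 9.51 to 80.5 CPM, the range between the quartiles of the members. Members below and above that range count in the 0.647, so abundance is matched only in part. Of the 27, 23 lay above the median of all genes. The spread ran differently in the immediate-early and heat shock genes. Control replicate 1 was the highest of the 6 libraries for 11 of 21 immediate-early genes (22.9% of all genes tested) and for 0 of 6 heat shock genes. Control replicate 2 was the highest for 6 of 6 heat shock genes (15.4% of all genes) and for 3 of 21 immediate-early genes. DEHP replicate 2 was the lowest library for 4 of 6 heat shock genes, against 23.8% of all genes.

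**Figure D1:**
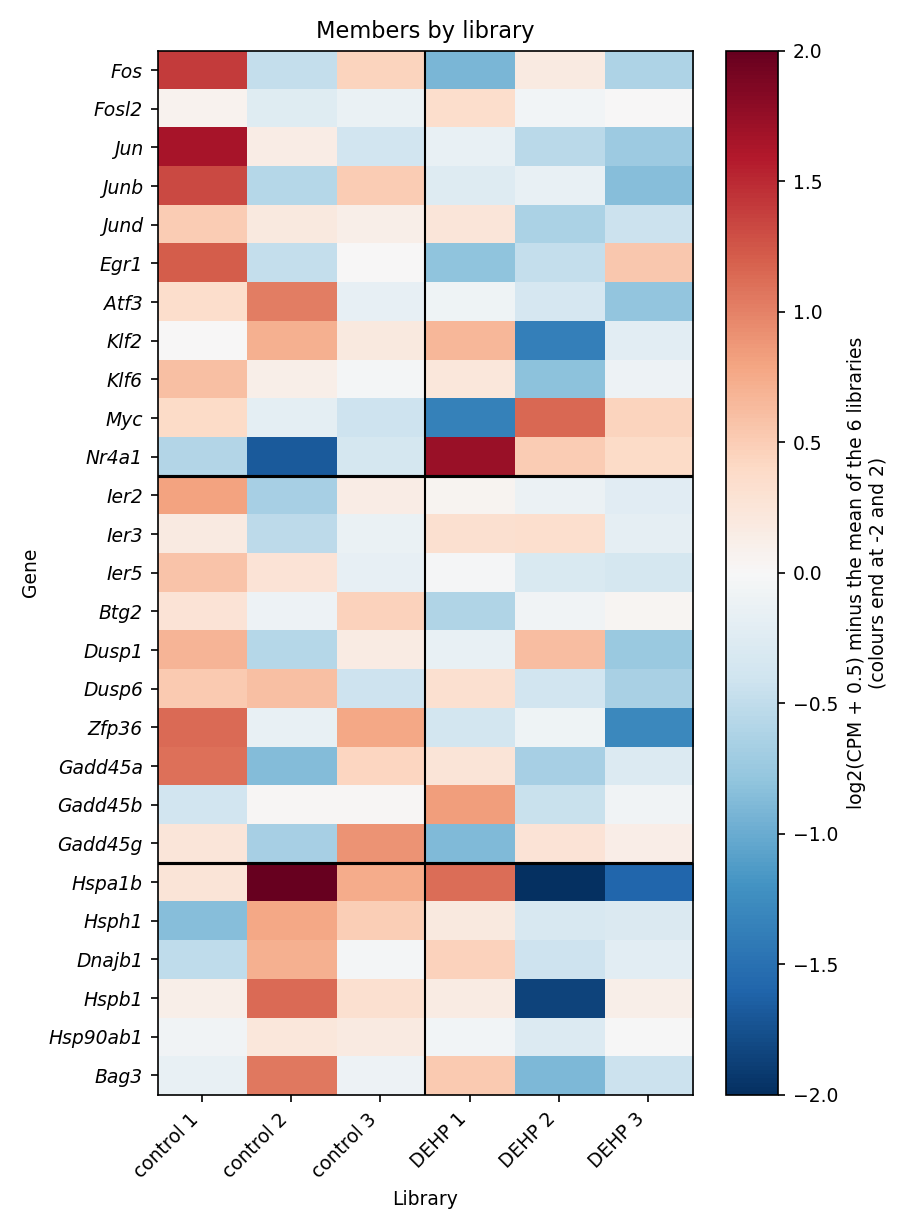
Each row is a tested gene and each column a library; colour is log2(CPM + 0.5) minus the gene's mean over the 6 libraries, and black lines part the transcription factors, the feedback genes, the heat shock genes and the groups. Control 1 holds the highest value for 11 of 21 immediate-early genes, and control 2 for 6 of 6 heat shock genes.

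Of the Fos and Jun genes, which encode AP-1 subunits, Fos, Jun, Junb and Jund were highest in control replicate 1, Fosb in control replicate 3 and Fosl2 in DEHP replicate 1. Fos, which encodes the partner of Jun in AP-1, stood at 13.5, 3.32 and 6.73 CPM in control replicates 1 to 3 and at 2.33, 5.50 and 2.97 CPM with DEHP. The groups overlapped, and control replicate 1 was above the rest. Its log2 fold change was -1.12 ± 0.50 (SE, edgeR adjusted p = 0.375), and it shrank to -0.47 without control replicate 1.

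Fos is shown by the 250 bases before its start site (RefSeq, GRCm38.p6, chr12:85473640-85473889, plus strand), with matches to the cyclic AMP response element core TGACG and the TATA box TATAAA in capitals.
Fos: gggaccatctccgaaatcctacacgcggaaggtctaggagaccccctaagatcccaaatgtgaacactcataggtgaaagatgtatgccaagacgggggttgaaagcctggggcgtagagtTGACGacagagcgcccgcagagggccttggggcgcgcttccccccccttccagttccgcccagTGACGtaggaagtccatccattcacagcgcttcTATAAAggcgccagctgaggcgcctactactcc

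Jun, the other core AP-1 subunit, had 232, 81.9 and 56.2 CPM in controls and 66.0, 50.2 and 44.4 CPM with DEHP. Control replicate 1 again lay far above, while control replicate 3 lay inside the DEHP range. Jun had a fold change of -1.20 ± 0.55 (adjusted p = 0.426), and -0.37 without control replicate 1. Junb, an AP-1 subunit with weaker transactivation than Jun, had 203, 54.3 and 116 CPM in controls and 67.4, 72.7 and 44.4 CPM with DEHP. Control replicate 2 was lower than both DEHP replicates 1 and 2. Its fold change was -1.02 ± 0.45 (adjusted p = 0.403), and -0.47 without control replicate 1.

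Jund, the most steadily expressed of the Jun genes, had 183, 148 and 141 CPM in controls and 153, 83.0 and 95.3 CPM with DEHP. DEHP replicate 1 lay among the controls and the other two DEHP libraries below them, with a fold change of -0.51 ± 0.24 (adjusted p = 0.379), which was -0.80 with DEHP replicate 1 omitted and -0.33 with DEHP replicate 2 omitted. Fosl2, the Fra-2 gene, varied least of the immediate-early members, from 11.1 to 13.9 CPM in controls and from 12.7 to 16.9 CPM with DEHP (0.21 ± 0.24, adjusted p = 0.756, and 0.10 with DEHP replicate 1 omitted). Fosb had only 6, 10 and 17 counts in controls and 6, 14 and 4 with DEHP.

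Egr1, a zinc finger factor of growth signalling, had 28.5, 8.46 and 12.1 CPM in controls and 6.68, 8.46 and 17.8 CPM with DEHP. The groups overlapped throughout apart from control replicate 1. Its fold change of -0.58 ± 0.51 (adjusted p = 0.689) became 0.10 without that library. Atf3, a stress-induced bZIP repressor, differed from the AP-1 genes in its highest library, with 6.17, 10.1 and 4.17 CPM in controls and 4.46, 3.66 and 2.55 CPM with DEHP. Its fold change was -0.94 ± 0.41 (adjusted p = 0.356), and -0.54 with control replicate 2 omitted.

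Nr4a1, the orphan nuclear receptor Nur77, was the single tested member whose groups did not overlap, and it lay higher with DEHP (9.17% of all genes tested were higher without overlap, and 8.57% lower). It had 4.61, 1.90 and 5.49 CPM in controls, from 65, 24 and 62 counts. With DEHP it had 24.7, 10.4 and 9.43 CPM, from 244, 119 and 111 counts. Means were 4.00 ± 1.87 and 14.8 ± 8.56 CPM (SD, n = 3). The fold change was 1.89 ± 0.46 and its adjusted p of 0.169 missed the threshold in the edgeR fit. DESeq2 called it (adjusted p = 0.00394), as did edgeR with no low-count filter (5.37e-06) and without control replicate 3 (0.0289). Those settings called 272, 496 and 400 of all genes, against 9 in the main edgeR fit. The last of them kept only control replicates 1 and 2. Over the alternatives that kept more than 1 control, the adjusted p of Nr4a1 ran from 5.37e-06 to 0.51. Its fold change was lowest, 1.33, without DEHP replicate 1 and highest, 2.19, without control replicate 3. The deposited coordinates follow the C57BL/6NJ strain annotation, in which Nr4a1 spans chromosome 15 from 107157537 to 107165506 and is protein-coding. As the member with the highest fold change, it is shown with its upstream sequence (RefSeq, GRCm38.p6, chr15:101266596-101266845, plus strand), with TGACG, read as CGTCA on this strand, in capitals.
Nr4a1: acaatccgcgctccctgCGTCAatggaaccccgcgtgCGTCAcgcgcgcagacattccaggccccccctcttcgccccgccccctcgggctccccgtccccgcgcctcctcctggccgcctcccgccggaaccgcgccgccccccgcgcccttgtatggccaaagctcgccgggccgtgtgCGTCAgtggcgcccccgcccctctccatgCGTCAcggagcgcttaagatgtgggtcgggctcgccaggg

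The element core occurs 4 times upstream of Nr4a1 and 2 times upstream of Fos. It was found on either strand in 7 of 11 promoters of the transcription factors, in 2 of 9 of the feedback genes and in 20.8% of all 32851 promoter windows of 300 bases (50 of them after the start site). The AP-1 site TGANTCA was found in 0 of these 20 promoters and in 7.81% of all. A match is a run of letters and not a measured binding site.

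The Krüppel-like factors did not share 1 pattern. Klf2, a factor of quiescent endothelium, had 18.1, 29.9 and 20.7 CPM in controls and 28.9, 6.72 and 15.6 CPM with DEHP (-0.43 ± 0.46, adjusted p = 0.744). That value was -0.03 with DEHP replicate 2 omitted and -1.02 with DEHP replicate 1 omitted. Its library order was that of Hspa1b and Bag3, highest in control replicate 2 and lowest in DEHP replicate 2. Endothelial markers (10 of 10 with a row, none at 0) summed to 478, 430 and 545 CPM in controls and 370, 246 and 479 CPM with DEHP. The sum, like Klf2, was lowest in DEHP replicate 2. Control replicate 2 and DEHP replicate 1, where Klf2 was highest, had lower sums than control replicate 3 and DEHP replicate 3. The part of endothelial cells in the Klf2 values was not tested. Klf6 ranged from 8.95 to 14.3 CPM and from 4.97 to 10.8 CPM (-0.45 ± 0.33, and -0.18 with DEHP replicate 2 or -0.69 with DEHP replicate 1 omitted). Klf4 had 0, 4 and 6 counts in controls and 25, 4 and 19 with DEHP. Its adjusted p was 0.292 in the fit with no low-count filter (unadjusted p = 0.0181).

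Myc, a driver of growth and ribosome production, had 8.86, 5.77 and 4.87 CPM in controls. With DEHP it had both the lowest and the highest value of the 6 libraries, 2.33 CPM in replicate 1 and 15.4 CPM in replicate 2, with 9.26 CPM in replicate 3. Its fold change was 0.47 ± 0.55 (adjusted p = 0.766) and turned to -0.15 without DEHP replicate 2.

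**Figure D2:**
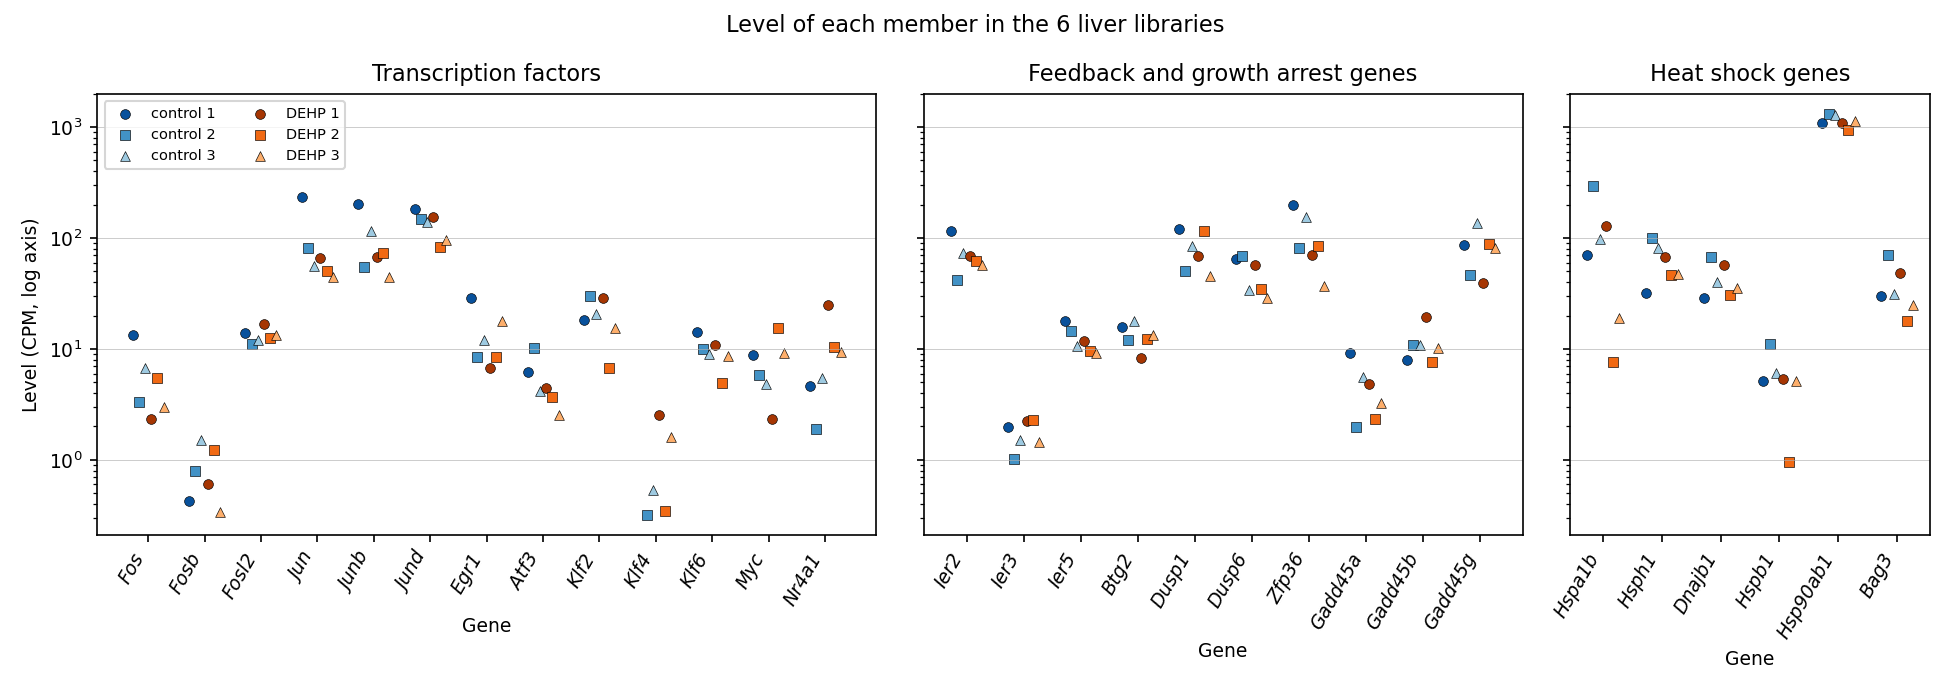
CPM on a log axis for the 29 genes with a row, 1 symbol per library (blue, control; orange, DEHP); the 0 of Klf4 in control 1 cannot be drawn. The Nr4a1 points of the groups do not overlap, and Hspa1b spans 7.68 to 292 CPM.

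Among the feedback genes, Zfp36 had the lowest fold change. It encodes tristetraprolin, which binds AU-rich mRNA, that of cytokines among them, and speeds its decay. Its level was 198, 81.0 and 154 CPM in controls and 69.7, 85.2 and 36.5 CPM with DEHP. Control replicate 2 fell between the DEHP libraries, so the groups overlapped. Its fold change of -1.18 ± 0.38 had an adjusted p of 0.281 in the edgeR fit. DESeq2 called it lower (adjusted p = 0.0283), as did edgeR with no low-count filter (7.51e-05). Those settings called 272 and 496 of all genes, against 9 in the main edgeR fit. Over the alternatives that kept more than 1 control, the adjusted p of Zfp36 ran from 7.51e-05 to 0.681. Leaving out control replicate 2 gave -1.46, and leaving out control replicate 1 gave -0.88. Zfp36 spans chromosome 7 from 28031199 to 28033696 in the table's coordinates. It is the single gene among the 20 immediate-early members with a promoter entry whose window holds a CArG box, the serum response factor motif found in 1.63% of all windows. The box is in capitals (RefSeq, GRCm38.p6, chr7:28379229-28379478, minus strand).
Zfp36: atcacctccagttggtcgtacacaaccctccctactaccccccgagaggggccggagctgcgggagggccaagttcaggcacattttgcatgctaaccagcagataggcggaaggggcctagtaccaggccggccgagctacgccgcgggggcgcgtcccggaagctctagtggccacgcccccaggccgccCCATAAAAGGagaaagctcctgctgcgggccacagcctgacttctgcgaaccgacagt

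Dusp1, a phosphatase of p38 and JNK, had 122, 50.8 and 84.8 CPM in controls and 68.3, 117 and 45.3 CPM with DEHP. Each group held both high and low libraries (-0.16 ± 0.40, adjusted p = 0.907). Dusp6, a phosphatase of ERK, had 64.9, 68.9 and 33.7 CPM in controls and 56.7, 34.6 and 28.6 CPM with DEHP (-0.48 ± 0.31, adjusted p = 0.549, and -0.29 with DEHP replicate 3 or -0.80 with DEHP replicate 1 omitted). Here control replicate 3 was the control that sat with the DEHP libraries.

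Ier2, a small nuclear immediate-early protein, had 117, 42.2 and 73.9 CPM in controls, a wider range than the 57.3 to 69.2 CPM seen with DEHP (-0.31 ± 0.30, adjusted p = 0.717). Ier5, which promotes HSF1 activity, ranged from 10.5 to 18.0 CPM in controls and from 9.18 to 11.8 CPM with DEHP (-0.50 ± 0.27, adjusted p = 0.445, and -0.30 with control replicate 1 omitted). Btg2, an antiproliferative factor, ranged from 12.0 to 18.0 and from 8.30 to 13.3 CPM (-0.43 ± 0.27, and -0.23 with DEHP replicate 1 omitted). Ier3 stayed between 1.03 and 2.27 CPM in all libraries (0.39 ± 0.57, and 0.18 with control replicate 2 or 0.64 with control replicate 1 omitted).

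The Gadd45 genes, which act in growth arrest and p38 signalling, differed in their highest libraries. Gadd45g was highest in control replicate 3, with 87.1, 46.1 and 138 CPM in controls and 39.5, 88.5 and 80.5 CPM with DEHP (-0.38 ± 0.44, adjusted p = 0.767). Gadd45a was highest in control replicate 1, at 9.21, 1.98 and 5.58 CPM in controls, and ranged from 2.36 to 4.86 CPM with DEHP (-0.69 ± 0.51). Its fold change was -0.12 with control replicate 1 omitted and -1.09 with control replicate 2 omitted. A noncoding row on the opposite strand overlaps Gadd45a and held 5 to 21 counts, and the strand setting of the counting is not stated in those sources. Gadd45b was highest in DEHP replicate 1, at 19.3 CPM, against 7.68 and 10.1 CPM in the other DEHP libraries and 8.01 to 10.8 CPM in controls (0.33 ± 0.33).

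Of 40 other immediate-early genes on a second list, 36 had a row and 30 were tested. None passed (0 higher, 0 lower). At an unadjusted p of 0.05, 2 were higher and 1 lower, and the median fold change was -0.05. Errfi1, a feedback inhibitor of the EGF receptor and the most abundant of them, had 0.33 ± 0.23 (adjusted p = 0.575), and Cebpb, a bZIP factor of liver, -0.31 ± 0.22 (adjusted p = 0.590). The control replicate 1 median of that list lay at 0.07 from its mean over the 6 libraries, against 0.52 for the 21 immediate-early members. Of 34 kinases and DNA-binding factors that act upstream of immediate-early genes, 32 were tested and 0 passed (at an unadjusted p of 0.05, 2 were higher and 0 lower, median 0.02). Egfr, which encodes that receptor, had -0.09 ± 0.26 (adjusted p = 0.919).

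**Figure D3:**
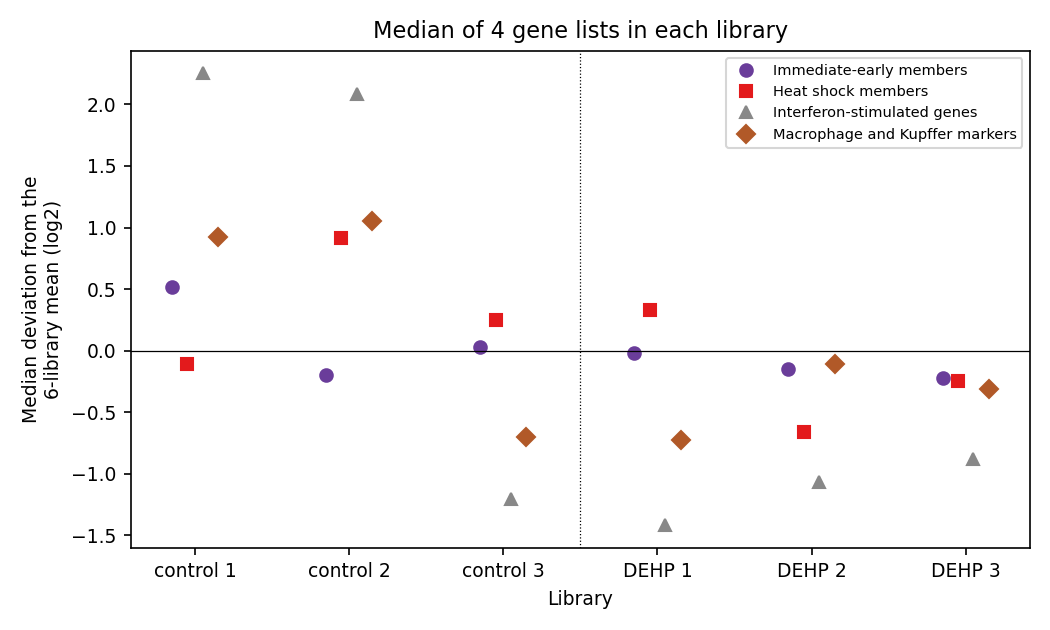
For each library, the median over a gene list of log2(CPM + 0.5) minus the gene's mean over the 6 libraries. Immediate-early members peak in control 1 (0.52) and heat shock members in control 2 (0.91), while interferon-stimulated genes are high in both.

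Control replicate 1, where Fos, Jun, Junb and Jund were highest, also had high interferon-stimulated and macrophage levels, as given above, and the highest sum of neutrophil markers (7 of 7 with a row, Ly6g and Mpo at 0). That sum was 9.64 CPM there, 3.28 to 9.64 CPM over the controls and 3.40 to 4.46 CPM with DEHP. Control replicate 2 had interferon and macrophage levels almost as high, but its immediate-early median lay at -0.20, below the mean. The part of these cells and genes in the immediate-early values was not tested.

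The heat shock genes were ordered differently over the libraries, with a median of 0.91 above the mean in control replicate 2 and -0.66 in DEHP replicate 2. Control replicate 2 was also high in interferon-stimulated and macrophage levels, whose part in the heat shock values was not tested, while control replicate 1, with levels as high, had a heat shock median of -0.11. Hspa1b, which encodes an inducible cytosolic HSP70, varied more than any other tested member, from 7.68 to 292 CPM over the 6 libraries, a 38.0-fold range. Controls had 70.2, 292 and 98.4 CPM, and DEHP libraries 128, 7.68 and 19.1 CPM. DEHP replicate 1 lay above control replicates 1 and 3, while DEHP replicates 2 and 3 lay below every control. Means were 153 ± 120.5 and 51.6 ± 66.4 CPM (SD, n = 3). A two-sided exact permutation test gave p = 0.3, and 3 libraries against 3 cannot go below 0.1. In the fit over all genes Hspa1b had -1.58 ± 1.30 (adjusted p = 0.685), which ran from -3.49 without DEHP replicate 1 to -0.71 without control replicate 2.

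Hspa1a, the twin of Hspa1b, could not be separated from it. In the table the Hspa1b row runs on chromosome 17 from 36417181 to 36433579, 16399 bases, for a gene model of 2803 bases. In GENCODE M21 on GRCm38 the stretch from the start of Hspa1b to the end of Hspa1a is 15721 bases. Of all 100-base windows of the Hspa1b transcript there, 49.9% occur unchanged in Hspa1a, and 47.1% of those of Hspa1a occur in Hspa1b. The Hspa1b value may therefore hold reads of both. Their upstream sequences differ at 3 of 250 positions and are shown to let that be seen (RefSeq, GRCm38.p6, chr17:34959239-34959488 and chr17:34972157-34972406, both minus strand). Capitals mark the heat shock element form GAANNTTC.
Hspa1b: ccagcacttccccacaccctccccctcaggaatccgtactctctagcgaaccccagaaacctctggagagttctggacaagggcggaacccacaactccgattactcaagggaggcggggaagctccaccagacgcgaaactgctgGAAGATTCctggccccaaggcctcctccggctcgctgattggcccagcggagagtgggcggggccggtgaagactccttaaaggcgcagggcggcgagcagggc
Hspa1a: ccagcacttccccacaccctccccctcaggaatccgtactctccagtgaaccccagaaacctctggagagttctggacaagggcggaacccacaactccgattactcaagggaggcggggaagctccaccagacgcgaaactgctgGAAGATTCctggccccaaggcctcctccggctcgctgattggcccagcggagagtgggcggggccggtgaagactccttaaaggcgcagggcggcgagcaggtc

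The element starts at position -104 in both, where -1 is the last base before the start site. The heat shock genes with a promoter entry were Hspa1a, Hspa1b, Hsph1, Dnajb1, Hspb1 and Bag3. Of these 6, 5 hold GAANNTTC or the overlapping form TTCNNGAA on either strand within 300 bases, as do 4587 of all 27025 genes. Counted by window, 6 of 8 hold one, against 15.1% of all promoter windows. Dnajb1 holds neither in its windows. Among the immediate-early genes, 2 of 11 transcription factors, Jun and Fosl2, and 0 of 9 feedback genes hold one. The Hsph1 window holds both forms after the start site, in bases that are not printed. Before the start site it has the form TTCNNGAA, in capitals here (RefSeq, GRCm38.p6, chr5:149636337-149636586, minus strand).
Hsph1: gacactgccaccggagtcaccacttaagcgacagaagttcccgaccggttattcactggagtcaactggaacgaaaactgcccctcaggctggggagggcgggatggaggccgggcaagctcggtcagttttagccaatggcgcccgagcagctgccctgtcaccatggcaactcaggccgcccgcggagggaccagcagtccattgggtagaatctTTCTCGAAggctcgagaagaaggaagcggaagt

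Hsph1, which encodes HSP110, the nucleotide exchange factor of HSP70, had 32.1, 100 and 81.8 CPM in controls and 66.7, 46.8 and 47.6 CPM with DEHP. Control replicate 1 was the lowest of the 6 libraries, below every DEHP library. Its fold change was -0.41 ± 0.37 (adjusted p = 0.692), and -0.08 without control replicate 2 or -0.76 without control replicate 1. Dnajb1, the HSP40 that hands substrates to HSP70, had 28.8, 67.7 and 39.9 CPM in controls and 57.1, 30.6 and 35.7 CPM with DEHP. Control replicate 1 was again lowest. A fold change of -0.15 ± 0.33 (adjusted p = 0.894) changed sign to 0.26 without control replicate 2.

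Bag3, an HSP70 co-chaperone of selective autophagy, had 30.3, 70.0 and 31.1 CPM in controls and 48.5, 17.8 and 24.6 CPM with DEHP. Its 6 libraries stood in the same order as for Hspa1b, with DEHP replicate 1 next to the top. Bag3 had a fold change of -0.53 ± 0.47 (adjusted p = 0.687), and -0.02 without control replicate 2 or -1.02 without DEHP replicate 1. Hspb1, the small heat shock protein HSP27, had 5.17, 11.1 and 6.03 CPM in controls and 5.37, 0.960 and 5.18 CPM with DEHP (-0.95 ± 0.55, adjusted p = 0.487, and -0.48 with DEHP replicate 2 omitted). DEHP replicate 2 alone was far below the rest, with 11 counts. A pseudogene row that lies inside the span of Hspb1 on the same strand had 3.93 CPM in DEHP replicate 2 and 7.53 to 11.6 CPM in the other libraries, so reads of the pair may be split.

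Hsp90ab1, the constitutive HSP90, was the most abundant member per length, at 380 CPM per kilobase over the 6 libraries. Gadd45g followed at 68.1, Zfp36 at 58.1 and Junb at 50.5 CPM per kilobase, and Fosb was lowest at 0.217. Hsp90ab1 had 1078, 1322 and 1289 CPM in controls and 1090, 933 and 1126 CPM with DEHP. Its highest library was 1.42 times its lowest, the narrowest range of the set, and control replicate 1 lay inside the DEHP range. The fold change was -0.23 ± 0.19 (adjusted p = 0.658), and -0.14 with DEHP replicate 2 omitted.

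**Figure D4:**
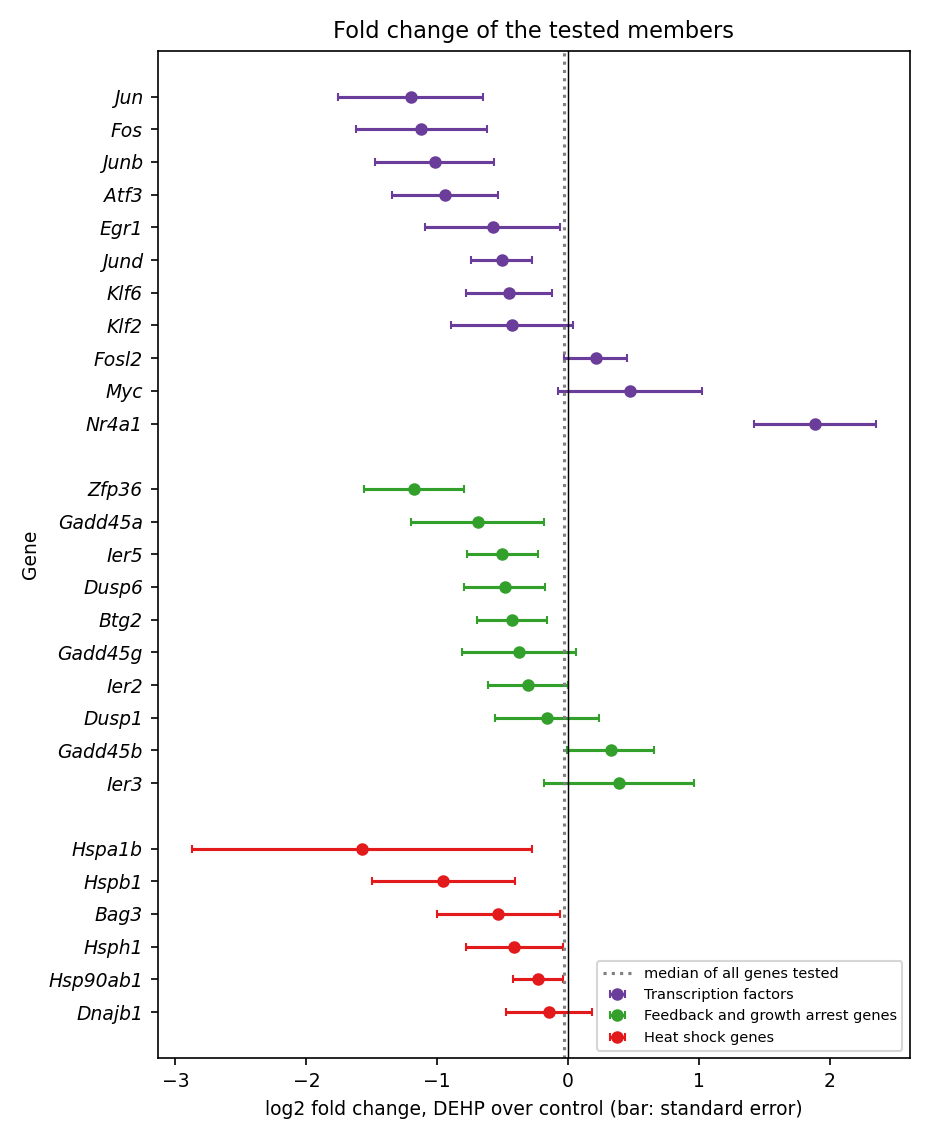
log2 fold change of DEHP over control for the 27 tested members, with standard errors; the dotted line is the median of all genes tested (-0.03). Nr4a1 lies highest at 1.89 and Hspa1b lowest at -1.58, with the widest bar.

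Hspa8 and Hsp90aa1, which have no row under their symbols, were looked for by their descriptions, after the values had been seen. A protein-coding row on chromosome 9 from 40278176 to 40287719 is described as the HSC70 protein that Hspa8 encodes. It had 600, 1174 and 999 CPM in controls and 934, 924 and 913 CPM with DEHP. Control replicates 1 and 2 lay on either side of the DEHP libraries, and the fold change was 0.00 ± 0.23 (adjusted p = 0.999). For Hsp90aa1, the inducible HSP90, a protein-coding row on chromosome 12 had 19.9, 32.2 and 29.8 CPM in controls and 26.9, 13.8 and 24.5 CPM with DEHP (-0.33 ± 0.27, adjusted p = 0.649). An unnamed locus beside it, described as the same protein, had 45.9, 83.7 and 69.7 CPM in controls and 66.1, 59.6 and 56.4 CPM with DEHP. These 3 rows were highest in control replicate 2. Of all rows so described that reached 10 counts in a library, control replicate 2 was highest for 2 of 4 for Hspa8 and 2 of 3 for Hsp90aa1. The exceptions were a pseudogene highest in control replicate 1, and an unnamed locus and another pseudogene highest in DEHP replicate 3.

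Related chaperone lists were followed for comparison. Of 28 heat shock factors and other cytosolic co-chaperones, 26 were tested and 0 passed (at an unadjusted p of 0.05, 2 were higher and 1 lower), with a median fold change of -0.15. The most abundant were Hspb8, a small heat shock protein that works with Bag3 (-0.10 ± 0.22, adjusted p = 0.878), and Fkbp4, an HSP90 co-chaperone (-0.28 ± 0.19, adjusted p = 0.564). Hsf1 itself, picked after its values were seen, had -0.50 ± 0.22 (adjusted p = 0.358). The list's median in control replicate 2 lay at 0.17, against 0.91 for the 6 heat shock members.

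Chaperonin subunits of the CCT complex had a median of 0.11 over 7 tested genes and 0 passed (at an unadjusted p of 0.05, 0 were higher and 1 lower). Endoplasmic reticulum chaperones and unfolded protein response genes had a median of -0.35 over 21 genes, of which 0 passed. At an unadjusted p of 0.05, 5 of the 21 were lower, against 6.97% of all genes, and 0 were higher, against 6.11%. The highest library of that list was control replicate 3, with a median at 0.43. Mitochondrial chaperones and proteases had a median of 0.29 over 9 genes, and 0 passed at either threshold. Of the 9, 8 were positive, against 5868 of all 12468 genes tested. The cold-inducible RNA-binding genes Cirbp and Rbm3 had -0.08 ± 0.26 and -0.17 ± 0.24 (adjusted p = 0.930 and 0.804).

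Clock and glucocorticoid genes were measured beside these. Over 13 tested clock genes 0 passed (at an unadjusted p of 0.05, 1 was higher and 0 lower), and over 11 glucocorticoid-responsive genes 0 passed at either threshold. Dbp, a clock output factor and one of the most abundant clock genes, had 115, 156 and 84.3 CPM in controls and 105, 19.9 and 48.7 CPM with DEHP (-1.03 ± 0.63, adjusted p = 0.560). DEHP replicates 2 and 3 were its lowest libraries and control replicate 2 its highest, as for Hspa1b, Bag3 and Klf2. The full orders differed, with control replicate 1 second for Dbp and DEHP replicate 1 second for those genes. Of the 13 clock genes, control replicate 2 was highest for 4 (15.4% of all genes) and DEHP replicate 2 lowest for 6 (23.8%). Tef, of the same family as Dbp, varied only from 150 to 266 CPM. The part of the clock genes in the heat shock values was not tested.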

How the data were processed

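Per the labels' protocols, polyadenylated RNA of mouse liver was made into directional libraries. The authors deposited whole-number counts of reads per gene, with gene lengths, in 1 table. The submitters' processing notes name GRCm38.p6, while the table's gene identifiers are of the Ensembl C57BL/6NJ annotation. For the aligner, the counter and its strand setting, nothing is given in the sources used here. Columns were matched to samples by group word and number in the titles.

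The 1284 unnamed loci, 2.73% to 4.28% of counts, stayed out of library sizes and tests. The test on the remaining 41096 rows used R 4.3.3 and edgeR 4.0.16, with filterByExpr (minimum count 10), TMM scaling, a robust quasi-likelihood fit with no covariates and Benjamini-Hochberg adjustment over 12468 genes, threshold 0.05. CPM take the TMM-scaled size of each library as their base. Within-group SDs use log2(CPM + 0.5). Fold changes are log2 of DEHP over control, with standard errors from the F statistic. Alternatives were RLE scaling, other filters, DESeq2 1.42.0, limma-voom (limma 3.58.1), a non-robust fit, the replicate number as a block, the test without interferon-stimulated genes, and leave-one-out fits. Leaving out control replicates 1 and 2, and adding unnamed loci, were chosen after seeing the data. The test was checked on simulated data.

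All 32 members are named. Other lists name up to 4 genes past the threshold or otherwise their 2 most abundant, and not all of these are printed. The members and lists were chosen with earlier results of these data known. Promoters are RefSeq windows for 26 of the 32 members. No pair of replicates was alike within sampling noise (chi-square per degree of freedom at least 28.4).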

Additional observations from a re-analysis of the deposited data

How the results depend on the processing

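Of all genes, 9 passed with all libraries, and 496 with no low-count filter, 272 with DESeq2, 5 to 400 with 1 library left out (400 without control replicate 3, 19 without DEHP replicate 1, 5 when control replicate 1 or DEHP replicate 3 was the one omitted) and 0 with control replicates 1 and 2 both omitted (edgeR, 642 at an unadjusted p of 0.05). Members called higher numbered 0, and 1 (Nr4a1) with no filter, with DESeq2 or without control replicate 3, so 0 to 1 with 1 library left out. Members called lower numbered 0, and 2 (Junb, adjusted p = 0.00703, and Zfp36) with no filter and 1 (Zfp36) with DESeq2. For Junb the adjusted p over all alternatives ran from 0.00703 to 0.762. The transcription factor median ran from -0.80 (without DEHP replicate 1) to -0.33 with 1 library left out, and was -0.13 without control replicates 1 and 2. The medians of the feedback and heat shock genes stayed below 0 in all alternatives run, at -0.53 to -0.21 and -0.80 to -0.13 with 1 library left out.

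None of the fold changes that changed sign had passed the threshold. With 1 library left out, the lowest and highest values were -1.11 and 0.10 for Egr1 (positive without control replicate 1), -0.15 and 0.95 for Myc (negative without DEHP replicate 2), and -0.60 and 0.11 for Ier2 (positive without control replicate 1). They were -0.59 and 0.18 for Dusp1 (positive without control replicate 1 or DEHP replicate 3), -0.13 and 0.59 for Gadd45b (negative without DEHP replicate 1), -0.69 and 0.085 for Gadd45g (positive without control replicate 3), and -0.43 and 0.26 for Dnajb1 (positive without control replicate 2 or DEHP replicate 2). Dusp6 (0.26) and Dnajb1 (0.053) also changed sign where control replicates 1 and 2 were both omitted. With 1 control left, that library is assumed to vary like the others. The cause of these changes was not tested.

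The labels do not state whether same-numbered libraries were paired. Deviations of same-numbered libraries correlated at -0.02, 0.07 and -0.03, and not every library correlated best with its own number. With so few libraries, these correlations cannot settle whether the samples were paired. With the number as a replicate block, 6 genes passed in place of 9, and 0 members. The planned sum of Hspa1a and Hspa1b before the fit was not run, since the table used here has no Hspa1a row under that symbol. The difference of the Hspa1b row, -101.8 CPM, ran from -143.3 to -32.7 with 1 library left out. Fosb held 4 to 17 counts in a library, Klf4 0 to 25 and Ier3 13 to 28, and Hspb1 fell to 11 in DEHP replicate 2.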
